A study of Mus musculus with 6 samples.

Results

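The genes described here handle retinoic acid, the active form of vitamin A: 2 enzymes that make it (Aldh1a2, Aldh1a3), 2 proteins that bind it in the cytoplasm (Crabp1, Crabp2), 1 enzyme that breaks it down (Cyp26b1) and 4 nuclear receptors that carry its signal to DNA (Rara, Rarb, Rarg, Rxra). These 9 genes were taken by symbol from a table of 35976 genes. They were chosen by their role in this pathway and with their read counts in the 2 groups already known, so the differences are a description and support nothing further. Of the 9, 8 had a read in some library and 7 passed the filter on low counts.

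Libraries of poly(A) RNA were made from cultured mouse chondrocytes, the cells that form cartilage matrix, which came from hind limb articular cartilage of embryos at day 18.5 (C57BL/6 x 129S4/SvJae background). All cells were expanded on plastic for 16 population doublings, and all received doxycycline at 2 µg/ml, which switches on a transgene for histone H3.3. In the H3K9M group (3 libraries, replicates 1, 3 and 5) the transgene has methionine in place of lysine 9, and the labels call these cells suppressed in H3K9 methylation. In the H3WT group (3 libraries, replicates 1, 2 and 4) it encodes the wild-type protein. The labels do not say which promoter drives the transgene, or whether the libraries of a group came from separate animals or cultures, so the spread between them may be technical. The comparison asks which transcripts differ in expanded chondrocytes when H3K9 methylation is suppressed.

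Retinol enters the cell, is oxidised to retinaldehyde and then, by the ALDH1A enzymes, to retinoic acid. CRABP proteins carry retinoic acid through the cytoplasm, CRABP2 to the nucleus, and CYP26 enzymes oxidise it for removal. In the nucleus it binds a retinoic acid receptor (RAR) paired with a retinoid X receptor (RXR) on paired half-sites in DNA called retinoic acid response elements. In the limb, retinoic acid restrains cartilage formation, CYP26B1 keeps its level low, and RARγ is the receptor best known from cartilage.

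Rarb is the textbook target of this system, since its own promoter holds a response element. That element is shown because the same letters were searched for in the promoters of the other members. The search covered both strands for the half-sites AGGTCA (the canonical half-site), AGTTCA (downstream in the Rarb element), GGTTCA (upstream in it) and GGGTCA (a further common form), repeated head to tail and spaced by 1, 2 or 5 bases. The windows ran from 250 bases before to 50 after each RefSeq start (GRCm38.p6, the assembly known as mm10). An exact element was found in the Rarb window on chromosome 14 (minus strand), at chr14:16575513-16575529, from base -53 to -37 relative to the start. A second repeat in the same window, at chr14:16575543-16575559, from -83 to -67, differed from the half-sites by 1 letter. The half-sites, or the near half-site, are in capitals.
Rarb, exact repeat: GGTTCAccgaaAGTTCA
Rarb, repeat with 1 mismatch: GGGTCAtttgaAGGTTA
Of all 32851 promoter windows, 0.588% held an exact element and 6.32% held one when 1 mismatch was allowed. Windows were found for 7 of the 9 genes (12 windows), and Crabp2 and Aldh1a3 had none. Rarb was the 1 gene of these 7 with an element, with or without the mismatch. Since AGTTCA and GGTTCA were included as the half-sites of the Rarb element, its exact match was fixed by the letters searched. The other genes with a window held no element. All 300 bases of the Rarb window lie in an exon of some Rarb transcript in GENCODE M21, so the RefSeq start is not the only annotated one.

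Promoter stretches are also shown for Crabp1 and Cyp26b1, because among the genes with a window these had the widest differences between the groups. The Crabp1 stretch is chr9:54764498-54764747 on the plus strand, the 250 bases before the start. The Cyp26b1 stretch is chr6:84593909-84594060 on the minus strand, and it stops 152 bases into the window, where an annotated exon begins. No letters are in capitals, because neither window held an element or any of the 4 half-sites. At least 1 half-site occurred in 43.7% of all windows.
Crabp1: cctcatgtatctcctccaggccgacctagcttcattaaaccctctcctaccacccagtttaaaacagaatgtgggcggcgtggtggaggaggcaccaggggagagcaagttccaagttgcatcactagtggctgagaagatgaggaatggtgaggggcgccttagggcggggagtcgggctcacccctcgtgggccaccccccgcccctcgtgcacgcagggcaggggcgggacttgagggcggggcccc
Cyp26b1: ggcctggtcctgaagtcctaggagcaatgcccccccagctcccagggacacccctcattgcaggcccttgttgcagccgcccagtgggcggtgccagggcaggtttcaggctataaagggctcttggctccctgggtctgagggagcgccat
Both stretches are rich in G and C: GC content over the full windows was 65% in Crabp1 and 62.3% in Cyp26b1, against a median of 52.7% over all windows. A match of these letters is a description of the sequence and says nothing of whether a receptor binds there.

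Library totals ran from 15113675 to 19606082 counts, and 13761 genes passed the filter. In the edgeR quasi-likelihood test across all of them, 0 genes (0%) passed a Benjamini-Hochberg adjusted p of 0.05, 1677 (12.2%) had an unadjusted p under 0.05, limma-voom called 0 genes and DESeq2 called 367 of 15154 (2.42%). None of the 9 retinoid genes therefore passed the edgeR test, and the differences below are not calls. The groups did not overlap for 3 of the 7 genes that passed the filter (19.4% of all genes tested), 1 higher and 2 lower in H3K9M, and 3 of the 7 differed by at least 2-fold (9.3% of all genes). These shares follow from how the genes were chosen. Values of the 3 libraries of a group are given below in the order of replicates 1, 3 and 5 for H3K9M, and 1, 2 and 4 for H3WT. The first principal component did not follow the groups: it set H3WT replicate 2 (49.1) beside H3K9M replicate 3 (51) and far from H3WT replicates 1 (-56.2) and 4 (-51.5). The second component did separate the groups (38.4, 39.8 and 19 in H3K9M against -11.4, -71.5 and -14.4 in H3WT). All 10 chondrocyte markers were detected. Their sum was 7324 to 11480 CPM (counts per 1000000 reads, with library sizes scaled by TMM) in H3K9M and 7240 to 19140 CPM in H3WT, most of it from Col2a1. None of the 10 had the higher mean in H3K9M, and 0 had groups that did not overlap. The largest log2 fold changes among them were those of Col9a2 (-2.13, SE 0.76) and Col9a1 (-1.89, SE 0.75). At 0 in every library were 3 of 6 macrophage markers (Ptprc, Adgre1, Tyrobp), 2 of 6 endothelial (Cdh5, Emcn), 1 of 6 epidermal (Krt5) and 1 of 6 neural and glial markers (Sox10), and each of these 4 lists summed to at most 21.8 CPM in any library. The macrophage sums were low but did not overlap (6.16, 14.9 and 8.27 CPM in H3K9M against 4.32, 3.37 and 3.83 CPM in H3WT), although 0 of the 6 genes did so singly. Of the endothelial markers 1, Egfl7, was lower in H3K9M without overlap. Fibroblast markers summed to 5349 to 15730 CPM in H3K9M and 4038 to 19190 CPM in H3WT. Nearly all of this was Col1a1 (4962 to 15550 CPM in H3K9M and 3685 to 18930 CPM in H3WT). Of the 6 fibroblast markers 2 (Dpt, Dpp4) were lower in H3K9M without overlap. Tendon markers summed to 100.5 to 195.5 CPM in H3K9M and 81.8 to 127 CPM in H3WT. Of these 4, 1 was higher without overlap (Scx, 89.5, 75.1 and 90.7 CPM against 50.6, 51.8 and 33.6 CPM) and 1 lower (Mkx). Skeletal muscle markers were not at 0, and their 6 genes summed to 121, 189 and 15 CPM in H3K9M against 5.56, 7.84 and 1.71 CPM in H3WT. All 6 had the higher mean in H3K9M, and 4 of the 6 did not overlap between the groups. The largest part of each sum was Des (81, 98 and 8.78 CPM in H3K9M). Only 3 of the 6 passed the filter, and Myog, Actc1 and Ckm failed it. Myog was separated by 4 reads in H3K9M replicate 5 against 0 in H3WT, and Ckm had reads only in H3K9M replicate 1 (13 reads). What part any of these marker lists has in the retinoid differences was not tested.

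The binding protein Crabp2 stood at 80.7, 131 and 81.7 CPM in H3K9M and at 22.8, 22.7 and 19.1 CPM in H3WT. The groups did not overlap, and every H3K9M library was above every H3WT library by more than the spread of either group. The fitted difference was 4.53-fold (log2 fold change 2.18, SE 0.22), with the smallest p of the 13761 genes. Its counts were ample, from 324 to 2703 reads a library. Without H3K9M replicate 3, the highest library, the log2 fold change was 1.92, and over the 15 alternative settings it ran from 1.92 to 2.30. In a bulk sample, a difference in the share of cells that express a gene and a difference in its RNA per cell cannot be told apart.

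The muscle markers were high in the same group as Crabp2, and what part they have in its difference was not tested. H3K9M replicates 1 and 5 had nearly the same Crabp2 level (80.7 and 81.7 CPM), while their summed muscle markers were 121 and 15 CPM. H3K9M replicate 3 was highest for both. A fit without H3K9M replicates 1 and 3 was chosen after the data were seen. It leaves 1 H3K9M library and assumes that it varies like the others. In that fit the Crabp2 log2 fold change was 1.93. The H3K9M library left, replicate 5, still had a higher muscle marker sum (15 CPM) than any H3WT library (at most 7.84 CPM).

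Crabp1, the sister binding protein, was far scarcer. It had 2.81, 1.74 and 7.04 CPM in H3K9M (42, 36 and 138 reads), and 0.337, 1.76 and 0.589 CPM in H3WT (6, 34 and 10 reads). The groups only just overlapped, because H3WT replicate 2 lay just above H3K9M replicate 3. The log2 fold change of 2.09 had a wide standard error (0.83). It was 1.34 without H3K9M replicate 5 and 3.06 without H3WT replicate 2. The 2 transcripts are 71.2% identical over 424 aligned bases, and neither shares a stretch of at least 100 bases at 90% identity or more with another annotated gene.

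Cyp26b1, which removes retinoic acid, had 24.7, 37.3 and 24.6 CPM in H3K9M and 89, 94.6 and 147 CPM in H3WT. The groups did not overlap, and the highest H3K9M value was under the lowest H3WT value. The fitted level was 3.81-fold lower in H3K9M (log2 fold change -1.93, SE 0.25), sixth in order of p among all genes tested. H3WT replicate 4 was the highest library, and leaving it out gave -1.67. Over the 15 settings it ran from -2.24 to -1.67. The muscle markers were lowest in H3WT replicate 4 (1.71 CPM), the library with the most Cyp26b1. Within H3K9M, replicate 3 had the most Cyp26b1 and the highest muscle marker sum (189 CPM). Replicates 1 and 5 had nearly the same Cyp26b1 level at 121 and 15 CPM of muscle markers. What part the muscle markers have in the Cyp26b1 difference was not tested. Without H3K9M replicates 1 and 3 the Cyp26b1 log2 fold change was -2.16, again with replicate 5 as the only H3K9M library.

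**Figure D1:**
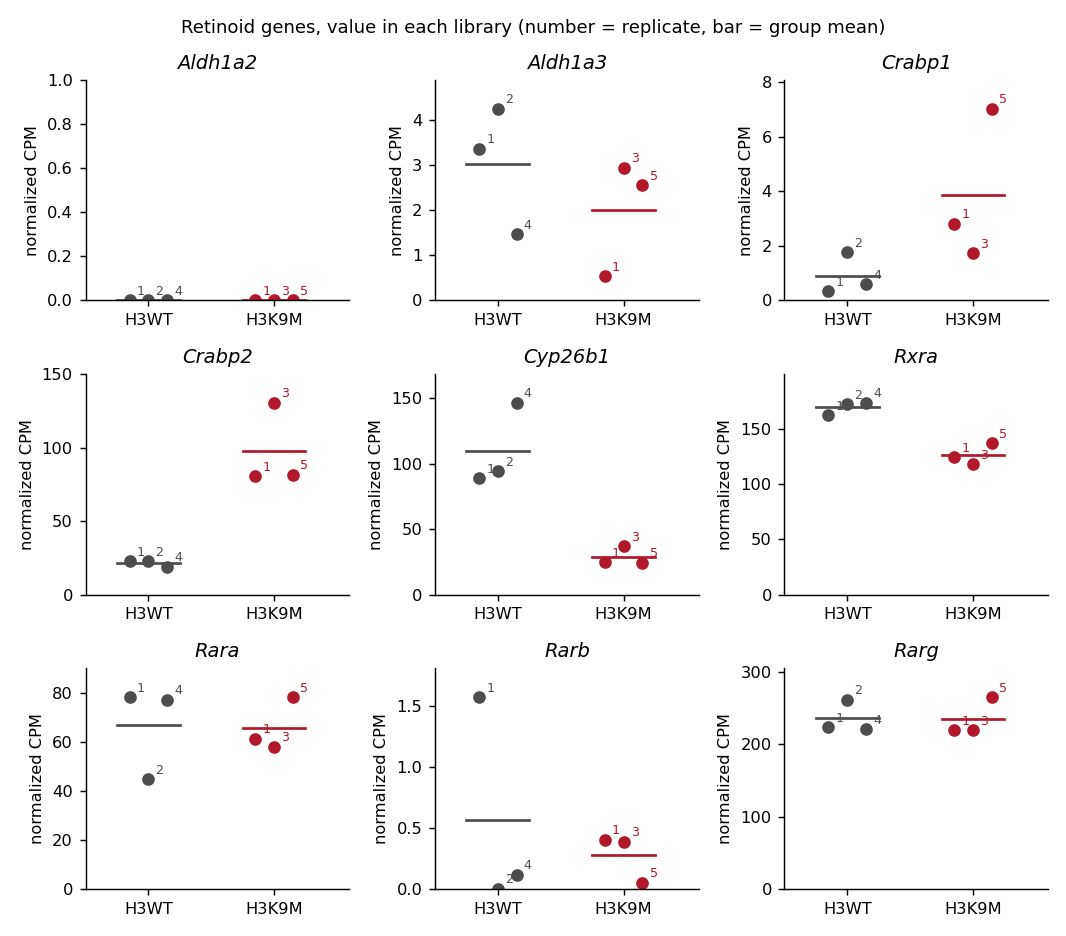
Normalized CPM (vertical axes, from 0) of the 9 retinoid genes in each library, with H3WT libraries in grey and H3K9M libraries in red; numbers are replicates and bars are group means. Crabp2, Cyp26b1 and Rxra show groups that do not overlap, while the 3 libraries of each group spread widely for Crabp1, Aldh1a3 and Rarb.

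**Figure D2:**
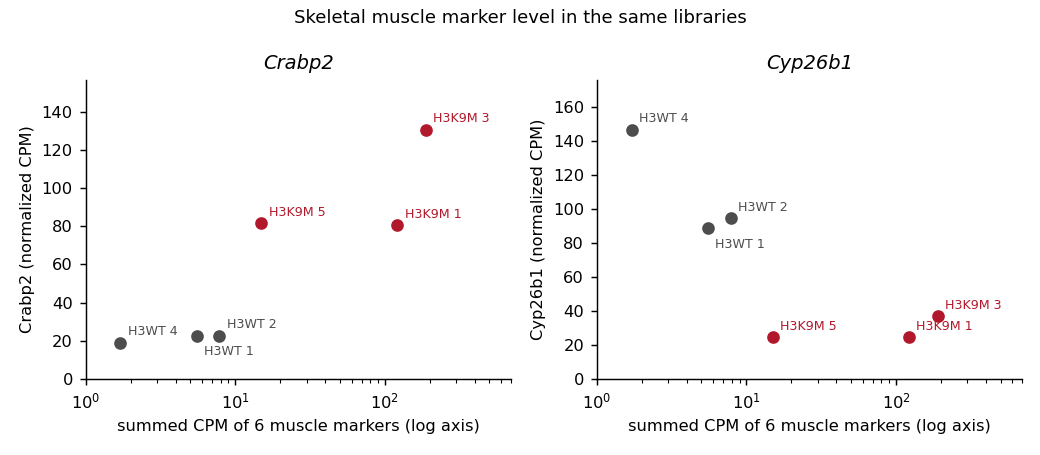
Crabp2 (left) and Cyp26b1 (right) in normalized CPM against the summed CPM of 6 skeletal muscle markers (log axis), 1 point a library, H3WT in grey and H3K9M in red. H3K9M replicates 1 and 5 have nearly the same Crabp2 level (80.7 and 81.7 CPM) at muscle marker sums of 121 and 15 CPM. H3K9M replicate 3 is highest for both Crabp2 (131 CPM) and the marker sum (189 CPM). Every H3K9M library has a higher marker sum than every H3WT library. What part the muscle markers have in either difference was not tested.

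Leaving out single libraries changed which of these differences passed the edgeR threshold. In the reported edgeR fit with all 6 libraries the adjusted p was 0.0987 for Crabp2 and 0.147 for Cyp26b1. Crabp2 had an adjusted p of 0.0201 without H3K9M replicate 3 and 0.0291 without H3WT replicate 2. Cyp26b1 had 0.0358 without H3WT replicate 2. Over the 15 settings the adjusted p ran from 3.38e-15 (DESeq2) to 0.486 for Crabp2 and from 5.71e-10 (DESeq2) to 1 for Cyp26b1. Without H3WT replicate 2, 91 genes passed in all.

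The synthesis enzymes had few reads or none. Aldh1a2, the main source of embryonic retinoic acid, had 0 reads in all 6 libraries, where up to 3 reads per library would be within counting error. Aldh1a3 had 0.536, 2.95 and 2.55 CPM in H3K9M (8, 61 and 50 reads), and 3.37, 4.25 and 1.47 CPM in H3WT (60, 82 and 25 reads). The groups overlapped, with the lowest H3K9M library far below the other 5. The log2 fold change was -0.58 (SE 0.73), and it was -0.14 without H3K9M replicate 1.

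Among the receptors, Rxra, the general partner of RARs, was modestly lower in H3K9M. It had 124.5, 118 and 137 CPM in H3K9M and 163, 172.5 and 174 CPM in H3WT. The groups did not overlap, and the 3 libraries of each group lay close together. The level was 1.34-fold lower in H3K9M (log2 fold change -0.42, SE 0.11, edgeR adjusted p 0.239). The log2 fold change lay between -0.47 and -0.30 over the 15 settings. The spread of Rxra within groups was small: the standard deviation of its log2 CPM was 0.09, and 12.8% of the 1191 genes within 0.5 log2 of its level had a smaller one.

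Rarg, the cartilage receptor, barely differed between the groups. It had 219, 219.9 and 265.6 CPM in H3K9M and 224, 262 and 221 CPM in H3WT. Each group held 1 library near 265 CPM and 2 near 220 CPM, and the log2 fold change was -0.01 (SE 0.13), with a sign that turned with the setting. Rara, the widely expressed receptor, had 61.2, 57.9 and 78 CPM in H3K9M and 78.2, 44.7 and 77.1 CPM in H3WT. The lowest Rara library was H3WT replicate 2, and H3K9M replicate 3 was the lowest of its group. The log2 fold change was -0.02 (SE 0.23), also of changing sign. Rara had a wide spread within groups (0.36 on the log2 scale), wider than 87.1% of the 2219 genes of like level. The spread of Cyp26b1 was similar (0.37, wider than 86.1% of 2399 genes of like level). That of Crabp2 (0.30) was wider than 76% of 2524 genes.

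Rarb, the receptor with the response element shown above, had very few reads: 6, 8 and 1 in H3K9M against 28, 0 and 2 in H3WT. The 28 reads of H3WT replicate 1 were the only value above 8, and the gene failed the filter. Rarb shares 1793 exonic bases with Top2b on the opposite strand in GENCODE M21, and the strand setting of the counts is not given in the sources used here. Even these few reads may therefore belong to Top2b, or reads of Rarb in the shared bases may have gone uncounted. The level of Rarb is uncertain in both directions.

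Levels of different genes were compared per length, as reads per kilobase of the longest annotated transcript scaled to the same total in each library, here called a TPM-like level. In H3WT, Rarg was highest with a mean of 239 TPM-like units, followed by Rxra with 103.6. Below them lay Cyp26b1 (mean 73.4), Crabp2 (69.3) and Rara (58.9), which changed places from library to library. Crabp1 (3.37), Aldh1a3 (2.64), Rarb (0.537) and Aldh1a2 (0) were far below and, apart from Aldh1a2, also changed places. In H3K9M, Crabp2 (mean 312) was above Rarg (234) in replicates 1 and 3 but not in replicate 5. That order turned with the length used: with the mean transcript length, Rarg (mean 342) was above Crabp2 (202) in all 3 libraries. Rxra (76) and Rara (57.1) followed in all 3 libraries. Cyp26b1 (19.1) lay among the low genes, above Crabp1 (14.1) in replicates 1 and 3 and below it in replicate 5.

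The ratio of Crabp2 to Cyp26b1 on this per-length scale was 15.8, 16.9 and 16.1 in H3K9M against 1.24, 1.16 and 0.628 in H3WT. Its difference between the groups restates the opposite differences of the 2 genes given above and is not a further result. Within H3K9M the ratio was nearly constant although both genes were highest in replicate 3. Rarg made up 80.3%, 81.2% and 79.6% of the per-length level of the 3 RARs in H3K9M, and 76.3%, 87% and 76.7% in H3WT. The H3K9M shares lay within the range of the H3WT shares, and Rarb, as counted, was at most 0.508% of the total. The H3WT library with the largest Rarg share was replicate 2, where Rara was lowest.

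**Figure D3:**
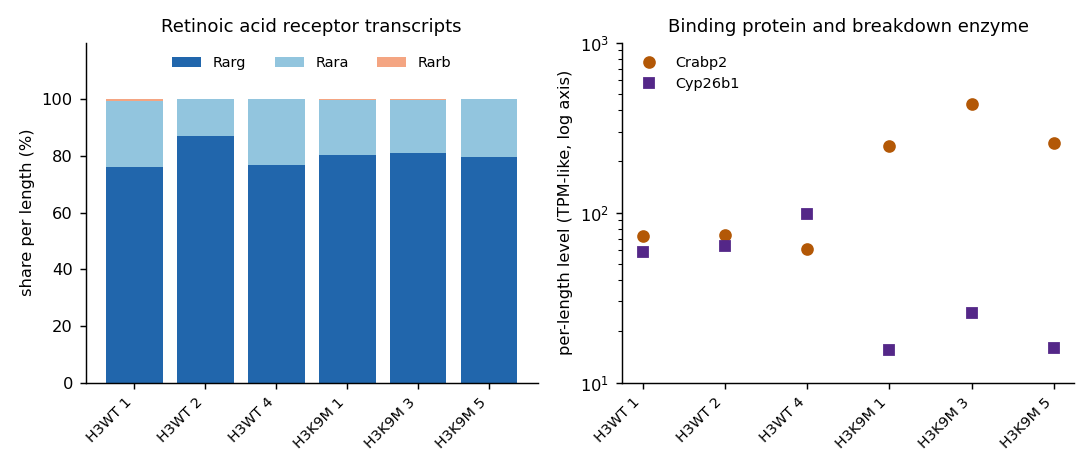
Left, share of Rarg, Rara and Rarb in their summed per-length level (percent, stacked bars) in each library; right, per-length level (TPM-like, log axis) of Crabp2 (circles) and Cyp26b1 (squares) in the same libraries. Rarg makes up 76.3% to 87% of the receptors in every library, and Crabp2 and Cyp26b1 lie close together in H3WT but 15.8 to 16.9 times apart in H3K9M.

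**Figure D4:**
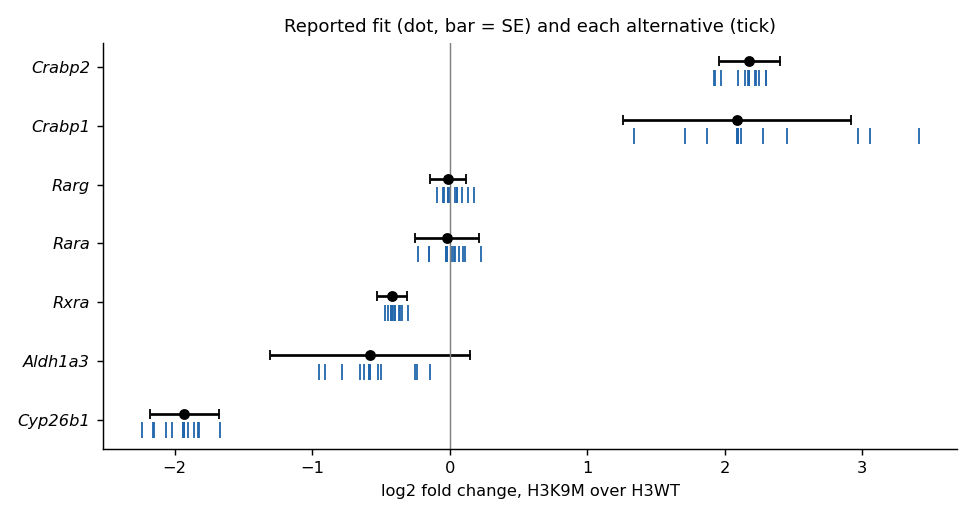
Log2 fold change of H3K9M over H3WT for the 7 genes that passed the filter; dots and bars are the reported edgeR fit with its SE, and each tick is 1 alternative setting. Crabp2, Crabp1, Cyp26b1, Rxra and Aldh1a3 lie on one side of 0 in every setting, and Rarg and Rara on both sides.

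The rest of the pathway was read from 6 lists that together hold 61 other genes, of which 37 passed the filter and 11 had no read in any library. Of these 37, 0 passed an adjusted p of 0.05 in either direction. An unadjusted p under 0.05 was found for 6 (16.2%, against 12.2% of all genes tested), 1 higher (against 6.42%) and 5 lower in H3K9M (against 5.77%). Groups did not overlap for 3 higher genes, Rdh5 and Hdac3 among them (against 10.7% of all genes). The same held for 6 lower genes, Rdh11, Aldh1a7, Ncoa2, Nrip1, Ep300 and Crebbp (against 8.68% of all genes). Rdh5 and Hdac3 were separated by little. The lowest H3K9M and highest H3WT values were 0.969 and 0.954 CPM for Rdh5, and 63.3 and 62.97 CPM for Hdac3. Their log2 fold changes were 0.95 (SE 0.71) and 0.11 (SE 0.11). Rdh5 also shares 720 exonic bases with Bloc1s1 on the same strand. Over the 37 genes the median log2 fold change was -0.18, against -0.003 over all genes tested. Of the 37, 25 (67.6%) were below 0, against 50.4% of all genes.

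Uptake and storage were thinly represented. The retinol receptor Stra6, its relative Stra6l, the esterifying enzyme Lrat and the carrier Ttr had no reads, and 2 of the 8 genes passed the filter.

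Of the 20 genes that convert retinol and retinaldehyde, 11 were tested, with 5 above and 6 below 0. Rdh10, the enzyme that makes retinaldehyde in the embryo, had 9.31, 13.3 and 11.1 CPM in H3K9M and 7.75, 4.98 and 9.6 CPM in H3WT (log2 difference 0.60, SE 0.31). Dhrs3, which turns retinaldehyde back to retinol, had 158, 92.6 and 134 CPM in H3K9M and 197, 136 and 247 CPM in H3WT (log2 difference -0.59, SE 0.26). The groups overlapped for both genes. Dhrs9, a retinol dehydrogenase, had the smallest p of the genes above 0 (log2 fold change 0.76, SE 0.28, edgeR adjusted p 0.353), and Adh5 had 0.27 (SE 0.13).

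Among the other enzymes of synthesis and breakdown, Cyp26a1 and Cyp26c1 had no read in any library, so Cyp26b1 was the only CYP26 gene detected. The largest difference of all pathway genes was that of Aldh1a7, a relative of Aldh1a1 whose part in retinoic acid synthesis is doubtful. Aldh1a7 had 1.34, 0.676 and 1.02 CPM in H3K9M and 10.3, 8.92 and 29.1 CPM in H3WT. The groups did not overlap, and every H3WT library was above 8 CPM (log2 fold change -4.00, SE 0.57, edgeR adjusted p 0.147). Aldh1a1, a retinaldehyde dehydrogenase, had 4.62, 1.64 and 9.85 CPM against 14, 7.47 and 25.8 CPM (log2 fold change -1.55, SE 0.69, edgeR adjusted p 0.422), and its groups overlapped. The Aldh1a7 transcript is 92.8% identical to that of Aldh1a1 over 429 bases, so reads may be shared between them. Summed over both genes the level was 5.96, 2.32 and 10.9 CPM in H3K9M and 24.3, 16.4 and 54.9 CPM in H3WT, again without overlap. Aldh1a7 passed the edgeR threshold without H3WT replicate 2 (adjusted p 0.0291). Without H3WT replicate 4, its highest library, the log2 fold change was -3.25 and the adjusted p 0.486. Over the 15 settings its adjusted p ran from 3.62e-10 (DESeq2) to 1.

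Of the other receptor and delivery genes, 3 of 4 were tested. Rxrb, a second RXR, had 42.5, 62.3 and 50.8 CPM in H3K9M and 49, 48.2 and 44 CPM in H3WT (log2 difference 0.14, SE 0.17). Fabp5, a fatty acid carrier that can also deliver retinoic acid, ranged from 3.09 to 30.6 CPM in H3K9M and from 7.16 to 33.9 CPM in H3WT (log2 fold change -0.37, SE 0.87), and its transcript resembles 5 other annotated genes.

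The 12 coregulators, which switch receptors between repression and activation, were all tested, and 9 were below 0. Nrip1, a corepressor that is itself induced by retinoic acid, had 20.9, 19.3 and 21.3 CPM in H3K9M and 50.2, 35.2 and 45.1 CPM in H3WT. Its groups did not overlap, and its H3K9M libraries lay within 2 CPM of each other (log2 fold change -1.09, SE 0.18, edgeR adjusted p 0.17, 0.0297 without H3WT replicate 2, and from 0.000396 to 1 over the 15 settings). The acetyltransferase genes Ep300 and Crebbp were lower by smaller amounts (log2 fold changes -0.40 and -0.37, SE 0.12 and 0.13; edgeR adjusted p 0.28 and 0.306). The corepressor Ncor1 had a log2 fold change of -0.14 (SE 0.12).

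Of the 17 response genes, those known to follow retinoic acid in other cells, 10 were tested and 7 were below 0. Cyp26a1, Stra6, Stra8 and Hoxb1 had no reads in any library. Tgm2, a transglutaminase gene, had 34.4, 24.2 and 29.3 CPM in H3K9M and 32.8, 36.9 and 40.9 CPM in H3WT (log2 difference -0.33, SE 0.18). The homeobox genes Meis1 and Meis2 had log2 fold changes of 0.26 (SE 0.41) and -0.22 (SE 0.20). Tgm2 shares 633 exonic bases with Gm20412 on the opposite strand, and Meis1 shares 1029 with Gm37818 on the same strand. Reads in these shared bases may have gone uncounted or may belong to the other gene. Dhrs3 and Nrip1, described above, belong to this list as well. The groups of Nrip1 did not overlap, and those of Dhrs3 did.

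**Figure D5:**
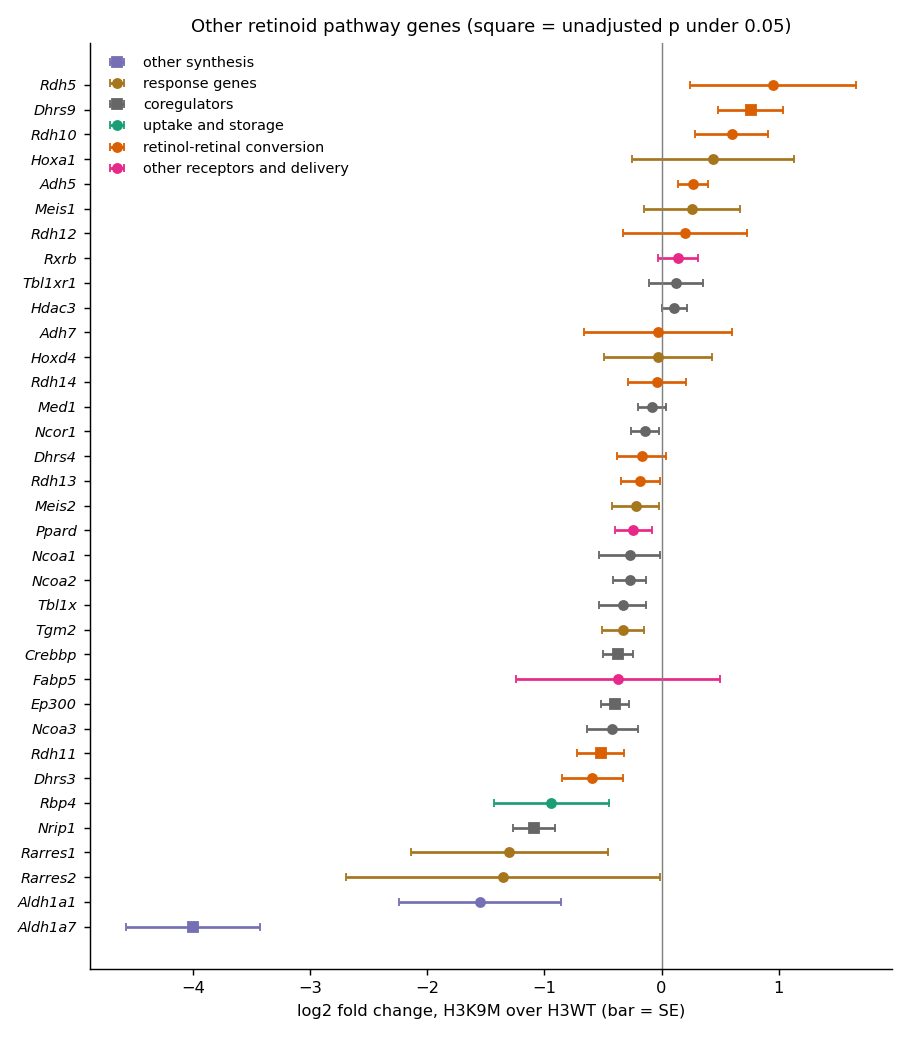
Log2 fold change of H3K9M over H3WT (horizontal axis, bars are SE) for 35 of the 37 tested pathway genes other than the 9, coloured by the first list each belongs to; squares mark an unadjusted p under 0.05. Aldh1a7 at -4.00 and Nrip1 at -1.09 have the smallest p, and no gene plotted passed an adjusted p of 0.05.

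Genes with the profile most like Crabp2 and Cyp26b1 were found by the root mean square difference of mean-centred log2 CPM over the 6 libraries, where 0 is an identical profile. Nearest to Crabp2 were Gm13212 (0.23), Mpzl3 (0.27) and 2700046G09Rik (0.30). These were scarce, at 0.354 to 4.93 CPM over the 6 libraries. Nearest to Cyp26b1 were Lrrn3 (0.30), Chadl (0.30) and Aldh1l1 (0.31). Chadl, which encodes a small leucine-rich repeat protein of cartilage, had 3.01, 3.38 and 2.6 CPM in H3K9M and 5.9, 7.37 and 12.2 CPM in H3WT. As for Cyp26b1, H3WT replicate 4 was its highest library, while for Aldh1l1 it was H3WT replicate 1 (5.95 CPM, against 4.95 CPM in replicate 4). These genes were picked by their values in these same libraries. A like difference between the groups therefore follows from the choice.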

How the data were processed

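The authors deposited unnormalized read counts for each gene symbol and library. The submitters' processing notes name HISAT2, featureCounts, DESeq2 and the build mm10; versions, annotation and strand setting are not given in the sources used here. Column names matched the sample titles. The 9 genes and all lists were chosen with earlier results of these data known.

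Counts were fitted in R 4.3.3 with edgeR 4.0.16: filterByExpr, TMM scaling, robust quasi-likelihood F test with group as the only term, and Benjamini-Hochberg adjustment over 13761 genes (threshold 0.05). The SE is the log2 fold change divided by the square root of F. CPM use TMM-scaled library sizes, and log2 CPM a prior count of 2. Pairs of libraries within a group differed by 28.6 to 126 times sampling variance (chi-square per degree of freedom), so no library was another one of its group deposited again. Pairs across the groups were not compared in this way. The values do not tell separate cultures from separate libraries of 1 culture. Reads carry no molecular identifiers in the table, and a gene at or under 3 counts was taken as at the floor.

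Transcript lengths, positions and overlaps came from GENCODE M21, similar transcripts from blastn, and promoters from RefSeq (GRCm38.p6). Named pathway genes were the 3 with the smallest p in each direction plus a listed set, and the 3 nearest profiles for Crabp2 and Cyp26b1; others were named after their values were seen. Alternatives were DESeq2 1.42.0, limma-voom (limma 3.58.1), other scalings and filters, no robust estimation, and leaving out libraries. Some genes of the pathway lists enter the counts but are not reported here by name.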

Additional observations from a re-analysis of the deposited data

How the results depend on the processing

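The number of genes past the threshold, 0 in the reported fit, was 367 with DESeq2, 36 when every gene with at least 1 count was tested, 302 without H3K9M replicate 3 and H3WT replicate 2 together, 1 without H3K9M replicates 1 and 3 (added after the data were seen), and 0 to 91 when 1 library was left out. Of the other pathway genes, 0 passed in the reported fit and 2, Aldh1a7 and Nrip1, passed with DESeq2, with all genes that had reads, and without H3K9M replicate 3 and H3WT replicate 2 together; leaving out 1 library gave 0 to 2. Those at an unadjusted p under 0.05 numbered 6, and 3 to 8 when 1 library was left out (3 without H3WT replicate 1). Crabp2 and Cyp26b1 passed with DESeq2 (log2 fold changes 2.18 and -1.94), with all genes that had reads (2.18 and -1.93) and without H3K9M replicate 3 and H3WT replicate 2 together (1.97 and -2.24); leaving out 1 library gave 1.92 to 2.30 and -2.15 to -1.67. When 1 library was left out, Crabp2 passed without H3K9M replicate 3 and without H3WT replicate 2, and Cyp26b1 passed without H3WT replicate 2. The cause of these calls was not tested. Rara turned positive with limma-voom (0.02), library size alone (0.04) and without H3K9M replicates 1 and 3 (0.23), and ran from -0.23 to 0.11 when 1 library was left out. Rarg turned positive with library size alone (0.05), without H3K9M replicate 3 and H3WT replicate 2 together (0.13) and without H3K9M replicates 1 and 3 (0.18), and ran from -0.09 to 0.09 when 1 library was left out. With mean in place of longest transcript length, the Rarg share in H3WT was 87.1% (80% with the longest) and the ratio of Crabp2 to Cyp26b1 in H3K9M was 15.6 (16.2). The other settings tried for these 7 genes kept the direction and the side of the threshold. The number of genes with a promoter element was 1 with or without the mismatch, namely Rarb, whose own half-sites were among those searched. No paired analysis was possible because the groups share only replicate number 1. With the mean length, Rarg was above Crabp2 in all 6 libraries. Rarb, with 0 to 28 reads a library, had too few reads for a fold change; the 3 libraries of Crabp1 and Aldh1a3 spread widely within each group (SD 1.03 log2 for both).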
